A study of Mus musculus with 20 samples.

Results

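Oxygen deprivation alters which mRNAs a cell translates as well as which it transcribes. The hypoxia change of the ribosome-bound to total ratio serves as an indirect measure of the change in each mRNA's ribosome loading, relative to other mRNAs. It was computed here for cultured macrophages derived from fetal liver, from 5 mice. For each gene and animal, log2(TPM + 1) in the ribosome-bound RNA minus log2(TPM + 1) in the total RNA was taken in the hypoxic culture, and the same difference in the normoxic culture was subtracted from it. This quantity, called the ratio change below, is positive where a transcript's ribosome-bound TPM, relative to its total TPM, was higher in hypoxia. Each library is scaled to the same sum, so a change of loading common to all mRNAs would not show. All 20 libraries of the series entered it, and 14842 of the 52636 genes listed were tested, namely those with at least 1 TPM in 2 or more libraries. TPM, a transcript's share scaled to 1000000 per library, carry no read numbers, and with the depth unknown no counting interval can be given.

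The groups were 3 animals labelled as conditional HuR knockouts (Csf1r-iCre, HuR fl/fl), called KO-84, KO-94 and KO-179, and 2 controls (Csf1r-iCre, HuR +/+), called WT-280 and WT-281. All 5 carried the Cre recombinase iCre, named for Csf1r, a receptor gene of the macrophage lineage, and all 5 expressed the ribosomal protein L10a fused to EGFP. Fetal liver cells (E14.5 in the design text, E14.4 in the growth protocol) were cultured for 6 days in medium conditioned by L cells, and separate plates were then held in hypoxia (1% O2) or normoxia (20% O2) for 18 h. Each lysate was split for translating ribosome affinity purification (TRAP), which pulls down mRNAs on EGFP-tagged ribosomes, and for total RNA (input), so each animal gave 4 poly(A)-enriched libraries.

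In hypoxia, cells generally lower cap-dependent initiation through the kinase mTOR, which holds back mRNAs that start with a run of pyrimidines, such as those of ribosomal proteins, and through phosphorylation of the initiation factor eIF2, which spares stress mRNAs such as that of Atf4. Hypoxia-inducible factors (HIF) induce genes of glycolysis and oxygen sensing, and ferritin mRNAs carry an iron-responsive element near their 5′ end at which iron regulatory proteins block ribosome loading. HuR, the product of Elavl1, binds AU-rich elements in mRNAs, among them those of Tnf and Vegfa, and is known to affect their stability and translation.

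Several libraries stood apart. In WT-280 the number of genes at 1 TPM or more was 10867 in TRAP and 10364 in input in hypoxia, against 10623 in TRAP and 12309 in input in normoxia, which makes a TRAP minus input difference 2189 genes higher in hypoxia. In the other animals this measure ranged from −155 to 344 genes, and the medians of several lists below were likewise highest in WT-280, beside which the median without that animal is given where it moved by over 1.5 times. Some abundant transcripts were listed at exactly 0 in single libraries, such as mt-Co1, a subunit of cytochrome c oxidase, at 0 in the hypoxia TRAP library of WT-281 and at 102 to 1591 TPM in the other 9 TRAP libraries, so a listed 0 may not mean that the transcript was absent. Of 24 macrophage markers in the tables, 19 were at 1 TPM or more in all 20 libraries. Among 12 erythroid markers 10 never reached 1 TPM (highest value 5.08 TPM), and none of 8 mast cell and basophil markers did (highest 0.433 TPM). The 12 fibroblast markers summed to 18.4 to 302 TPM in TRAP and 148 to 1078 TPM in input, and in bulk RNA fewer cells of a type cannot be told apart from less RNA per cell.

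Elavl1 was detected in every library, and its level did not separate the genotypes. In TRAP it measured 0.760, 19.6 and 6.00 TPM in the hypoxic cultures of KO-84, KO-94 and KO-179 with 8.25 and 1.14 TPM in WT-280 and WT-281, and in normoxia it measured 26.0, 72.1 and 3.99 TPM, with 40.4 and 2.88 TPM in the controls. In input the hypoxia values were 29.2, 18.3, 1.69, 20.8 and 2.07 TPM in the same order of animals and the normoxia values 40.1, 154, 43.0, 47.3 and 25.9 TPM. The ranges of the genotypes overlapped in each of these sets, so the animals are called knockout-labelled; the floxed exons are not named in the labels. The ratio change of Elavl1 was −3.50, 1.17, 4.52, −1.02 and 2.27 in the 5 animals, with a mean of 0.69 ± 0.973 (SE, n = 5), and it was negative (−0.27) without KO-179.

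No gene passed the test of the ratio change. A limma fit of the 5 differences against 0, with Benjamini-Hochberg adjustment over all genes, called 0 of 14842 genes (0%) at an adjusted p under 0.05, and the smallest adjusted p was 0.868. At an unadjusted p under 0.05 there were 707 genes, where chance gives 742, of which 492 had a higher ratio in hypoxia (3.31% of all genes) and 215 a lower one (1.45%). In all 5 animals alike, the ratio was higher in hypoxia for 681 genes (4.59%) and lower for 310 (2.09%). That split followed the scale: after centring each animal on its median gene it was 510 higher and 556 lower, and after quantile normalization 448 higher and 607 lower. The median gene itself lay at 0.14 on the log2 scale, at 0.03 after centring, and at 0.06 without WT-280. Of all 14842 means 9077 were above 0 and 5765 below. By level the median was 0.0881 under 1 TPM, 0.198 at 1 to 10 TPM and 0.158 at 10 to 100 TPM. It was −0.0364 at 100 to 1000 TPM and −0.0712 at 1000 TPM or more. At those higher levels 5.43% and 5.26% of genes were lower in all 5 animals, and 3.69% and 3.29% higher. The values below are to be read against the shift at their level. Fitted each alone, 0 genes (0%) passed for TRAP, with 738 below 0.05 before adjustment and a smallest adjusted p of 0.865, and 0 for input, with 1021 and 0.293. In simulated data the test of the ratio change recovered 7.7% of 2-fold and 50.8% of 4-fold changes in genes averaging at least 10 TPM. Recovery in genes below that level was not tested. A gene that did not pass may thus still have changed.

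The 5 animals gave unlike profiles of the ratio change. Across 14842 genes, which are not independent replicates, Pearson's r between the profiles of any pair of animals lay between −0.04 and 0.03, and among the 1183 genes that averaged 100 TPM or more it lay between −0.13 and 0.20. The spread over genes was narrowest in KO-94 (SD 0.754) and measured 1.41, 1.11, 1.55 and 1.41 in KO-84, KO-179, WT-280 and WT-281. A ratio change beyond 1 log2 unit was seen for 13.9% of genes in KO-94 and for 39.9%, 28.9%, 44.9% and 38.9% in those other animals. Within an animal, the hypoxia changes of TRAP and of input were weakly related across genes, with r between 0.05 and 0.13, and between 0.03 and 0.32 (WT-280) at 100 TPM or more. The median SD of the 5 values of a gene was 0.913 under 1 TPM, 1.23 at 1 to 10 TPM, 0.901 at 10 to 100 TPM, 0.483 at 100 to 1000 TPM and 0.377 at 1000 TPM or more. The median size of the mean change, without its sign, was 0.312, 0.436, 0.331, 0.191 and 0.146 at these levels, so it too was smallest where the SD was.

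**Figure D1:**
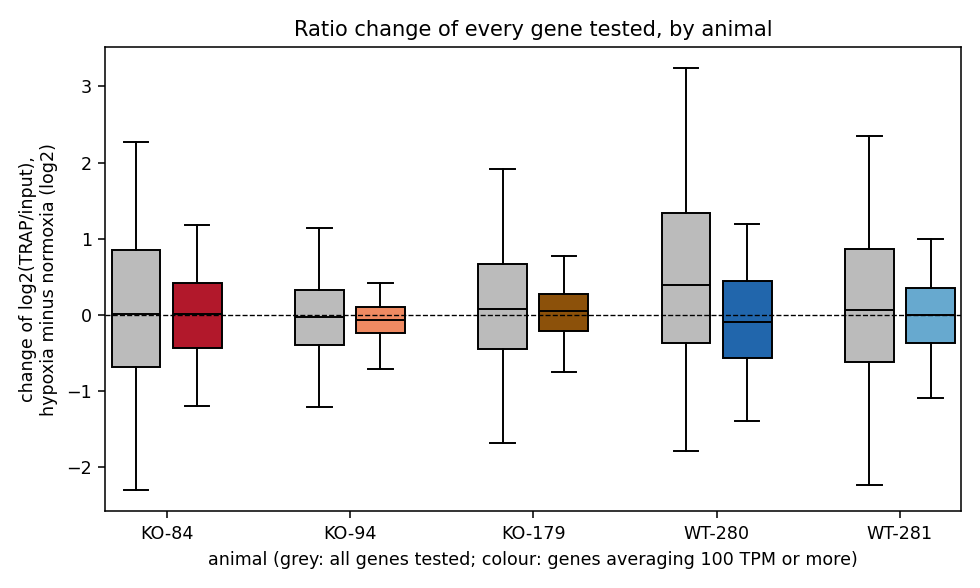
Ratio change (change of log2 TRAP over input, hypoxia minus normoxia) of each gene by animal, with boxes for the quartiles, whiskers for the 5th and 95th percentiles and a line for the median, grey for the 14842 genes tested and coloured for the 1183 that averaged 100 TPM or more. The boxes straddle 0 in each animal, those of abundant genes are narrower, and the grey median of WT-280 (0.39) is the highest of the 5.

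Among the most abundant transcripts, both ferritin mRNAs had a lower ratio in hypoxia in all 5 animals, and this did not pass the test. Of genes averaging 1000 TPM or more, 5.26% were lower in all 5, and their median ratio change was −0.0712. Fth1, the ferritin heavy chain that oxidises and stores iron, measured 38525, 41241, 51485, 42838 and 54985 TPM in hypoxia TRAP in KO-84, KO-94, KO-179, WT-280 and WT-281, against 51949, 50156, 58004, 62657 and 76140.0 TPM in normoxia TRAP. Within each animal the hypoxia value was the lower of the pair. Input held 88868, 54392, 62795, 78039 and 105079 TPM in hypoxia and 74536, 54292, 64467, 74197 and 104392 TPM in normoxia, so it was higher in hypoxia in 4 animals and lower in KO-179. The ratio change of Fth1 was −0.69, −0.29, −0.13, −0.62 and −0.48, with a mean of −0.44 ± 0.101 (SE, n = 5; 95% interval −0.67 to −0.21), of which TRAP made up −0.38 ± 0.0936 and input 0.06 ± 0.0929. It did not pass (limma adjusted p = 0.868; unadjusted 0.00179), and its mean ranged from −0.52 to −0.38 with 1 animal left out.

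Ftl1, the ferritin light chain, was lower in ratio in all 5 animals too, by amounts that differed widely. It measured 8931, 14281, 39344, 48831 and 22371 TPM in hypoxia TRAP, against 10099.9, 15567, 44539, 42307 and 30114 TPM in normoxia TRAP, where WT-280 alone was higher in hypoxia. Input gave 33296, 27575, 31744, 52556 and 33958 TPM in hypoxia and 13654, 29479.5, 31879, 35403 and 28506 TPM in normoxia. Its ratio change was −1.46, −0.03, −0.17, −0.36 and −0.68 (mean −0.54 ± 0.188, SE, n = 5; limma adjusted p = 0.868), with a mean of −0.31 without KO-84, and the low normoxia input value of KO-84 makes its own the most negative. The summed share of Fth1 and Ftl1 in all TPM had a log2 ratio change of −0.44 ± 0.282 (SD, n = 5), negative in 5 of 5 animals. The exact two-sided sign-flip test gave p = 0.0625, the smallest that 5 pairs allow, and 0.375 after Benjamini-Hochberg adjustment over the 12 library-wide measures examined. Quantile normalization, which assigns values to top-ranked genes by rank, moved the mean of Fth1 to −0.14 and that of Ftl1 to −0.44, and neither gene was then lower in all 5 animals.

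**Figure D2:**
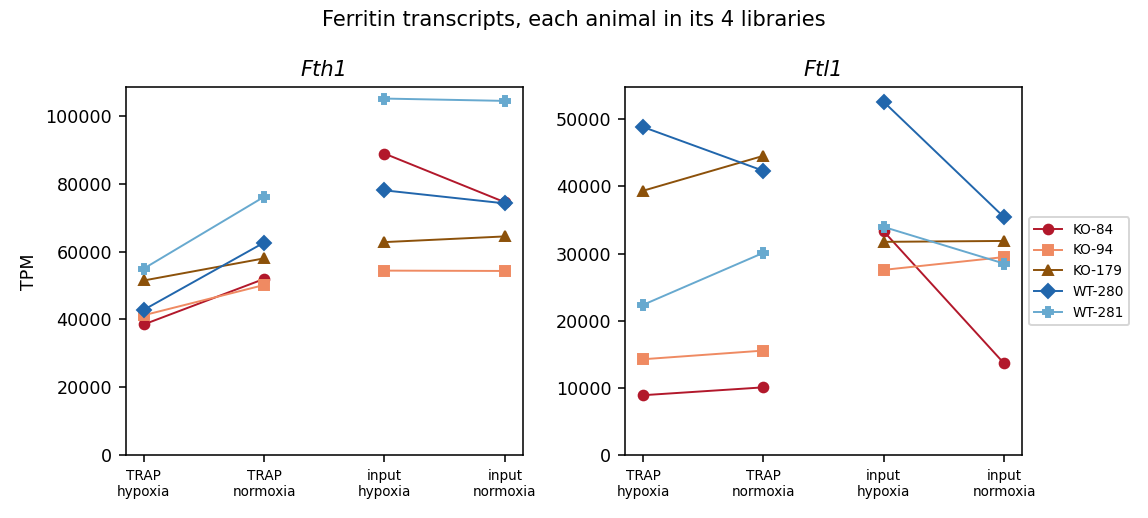
TPM of Fth1 (left) and Ftl1 (right) in the 4 libraries of each animal, hypoxia left of normoxia within TRAP and within input, with a line joining the 2 cultures of an animal. Fth1 in TRAP is lower in hypoxia in each of the 5 animals (38525 to 54985 TPM in hypoxia, 50156 to 76140.0 TPM in normoxia), while the lines in input run in both directions.

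The ferritins belong to a list of 16 genes of iron handling, all tested, of which 0 passed. Fth1 and Ftl1 were the 2 lower in all 5 animals (12.5%, beside 2.09% of all genes), and 1 gene was higher (6.25%, beside 4.59%). Means above 0 numbered 12 of 16, beside 9077 of 14842 over all genes (list median 0.29, or 0.06 without WT-280). Whether the ferritins differed from the rest of the list was not tested. The gene higher in all 5 was Slc11a2, the divalent metal transporter, at 0.94 ± 0.396 (SE), or 0.61 without WT-280. Tfrc, the transferrin receptor, was low in both fractions in hypoxia: TRAP held 0.746, 3.61, 0.730, 0.615 and 2.35 TPM in hypoxia against 3.45, 8.89, 14.8, 13.8 and 5.69 TPM in normoxia, and input 1.63, 3.87, 6.15, 1.803 and 3.50 TPM in hypoxia against 10.8, 16.8, 27.6, 29.4 and 14.37 TPM in normoxia. Hypoxia was lower in every pair, by −1.97 ± 0.473 in TRAP (limma adjusted p = 0.865) and −2.25 ± 0.326 in input (0.660) on the log2 scale, and the ratio change of Tfrc was 0.28 ± 0.497, with KO-179 alone negative. Slc40a1, the iron exporter ferroportin, was positive in 4 animals (0.89 ± 0.408) and −0.51 in WT-280. Iscu, the scaffold on which iron-sulfur clusters are built and no member of that list, was lower in all 5 animals (−0.68 ± 0.214).

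Among genes that averaged at least 10 TPM, the ratio was higher in hypoxia in all 5 animals for 305 of 6257 (4.87%) and lower for 163 (2.61%). The 12 with the smallest p in each direction are described, each with a limma adjusted p of 0.868. Besides Fth1 and Iscu, the lower group held Prdx1, a peroxide-reducing enzyme, Uqcrh, a subunit of respiratory complex III, Gng12, a G protein gamma subunit, Mcub, a subunit of the mitochondrial calcium channel, Derl2, which serves degradation of misfolded proteins of the endoplasmic reticulum, Dctn6, a dynactin subunit, Fbxw2, an F-box protein, Abraxas1, a subunit of a BRCA1-containing DNA repair complex, Tmem69 and Dbndd2. Prdx1 measured 1488, 2954, 2049, 1883 and 3578 TPM in hypoxia TRAP, against 1730.2, 4915, 2942, 3127 and 3963 TPM in normoxia TRAP, lower in each animal. In input it measured 2842, 2674, 1686, 2751 and 3278 TPM in hypoxia and 2869, 3547, 1145, 1563 and 2393 TPM in normoxia, higher in hypoxia in KO-179 and both controls. Its ratio change was −0.20, −0.33, −1.08, −1.55 and −0.60 (mean −0.75 ± 0.200, SE).

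Those 12 genes came to a lower ratio by different routes. For Dbndd2 the TRAP value was lower in hypoxia in every animal (12.01, 8.71, 2.25, 10.3 and 4.45 TPM, against 29.2, 21.9, 27.4, 24.6 and 18.96 TPM in normoxia), with −1.73 ± 0.355 in TRAP and 0.89 ± 0.567 in input. The normoxia input value of WT-281 was 0.435 TPM, where the other 9 input libraries held 10.8 to 34.0 TPM, and that animal's ratio change of −5.46 was the most negative of a mean of −2.61 ± 0.596. Tmem69 had −1.79 ± 0.350 in TRAP and 0.62 ± 0.379 in input. For Mcub, by contrast, input was the fraction that differed: 101, 125, 92.1, 192 and 70.0 TPM in hypoxia, against 50.5, 86.6, 37.0, 69.8 and 28.4 TPM in normoxia. TRAP of Mcub was higher in hypoxia by 0.32 ± 0.215 and input by 1.10 ± 0.168, which left a ratio change of −0.78 ± 0.236. Uqcrh (−1.14 ± 0.305) differed in both, at −0.45 ± 0.200 in TRAP and 0.69 ± 0.183 in input. Gng12 lay between −1.09 and −0.49 (mean −0.72 ± 0.199). Abraxas1 was listed at 0 in the normoxia input library of KO-84, whose ratio change of −4.42 depends on the added 1 TPM.

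The 12 genes with a higher ratio in all 5 animals were Atp6ap1, an accessory subunit of the proton pump of lysosomes, Dnm2, the dynamin that cuts endocytic vesicles, Chpt1, an enzyme of phosphatidylcholine synthesis, Abhd16a, a phospholipase, Ctnnd1, the cadherin-binding p120 catenin, Fbxo18, a DNA helicase, Zbtb7a, a transcriptional repressor, Kctd5, an adaptor of ubiquitin ligases, Grwd1, a factor of ribosome assembly, Lrrc40, Tbc1d31 and Zfp740. Atp6ap1 measured 73.8, 109, 143, 63.1 and 96.7 TPM in hypoxia TRAP and 17.8, 71.4, 93.6, 101 and 76.5 TPM in normoxia TRAP. Its input held 147, 204, 136, 31.4 and 118 TPM in hypoxia and 120.0, 304, 138, 113 and 114 TPM in normoxia. The ratio change was 1.70, 1.18, 0.62, 1.15 and 0.29 (mean 0.99 ± 0.260, SE), and in WT-280 it came from a low input value in hypoxia with no higher TRAP value. Lrrc40 (1.71 ± 0.461), Dnm2 (1.08 ± 0.302) and Chpt1 (1.20 ± 0.343) had a positive mean in TRAP and a negative one in input. Zbtb7a (1.81 ± 0.557, or 1.15 without WT-281) had 0.44 ± 0.550 in TRAP and −1.37 ± 0.191 in input. The values of Fbxo18 were 1.33, 1.07 and 0.44 in the knockout-labelled animals and 4.41 and 4.07 in the controls. Grwd1 was listed at 0 in the normoxia TRAP libraries of KO-84 and WT-281, whose ratio changes (1.96 and 1.82) depend on the added 1 TPM.

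**Figure D3:**
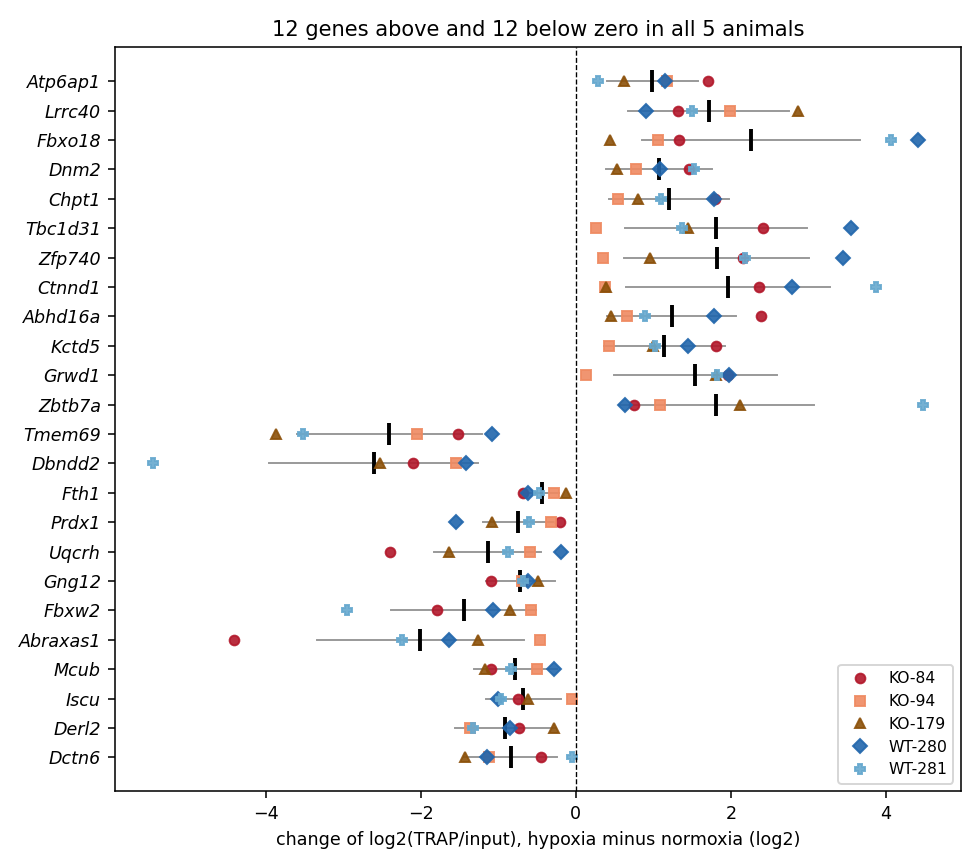
Ratio change of the 12 genes above 0 (upper rows) and the 12 below 0 (lower rows) in all 5 animals with the smallest p among genes averaging at least 10 TPM, with a symbol per animal, a black tick for the mean and a grey line for its 95% interval before any adjustment. The genes were chosen for lying on a single side of 0; Fth1, between −0.69 and −0.13, has the shortest interval, and none passed after adjustment.

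The HIF targets outside glycolysis gave a positive median ratio change that was highest in WT-280. Of 24 targets 22 were tested, 0 passed, and 2 had a higher ratio in all 5 animals and 0 a lower one (9.09% and 0%, beside 4.59% and 2.09% of all genes). The list median was 0.38 over the mean values, and by animal it was −0.06, 0.02 and 0.22 in the knockout-labelled animals and 1.36 and 0.20 in WT-280 and WT-281. Without WT-280 it was 0.21 and without WT-281 0.20. The 2 genes were P4ha2, a prolyl hydroxylase of collagen, and Egln3, a prolyl hydroxylase that marks HIF for degradation.

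P4ha2 measured 5.81, 6.00 and 7.27 TPM in hypoxia TRAP in the knockout-labelled animals and 18.3 and 17.5 TPM in the controls, against 0.427, 2.96 and 5.75 TPM in normoxia TRAP in the knockout-labelled animals and a listed 0 in both controls. Its input held 15.3, 16.9, 7.97, 18.6 and 19.3 TPM in hypoxia and 5.95, 12.4, 7.55, 11.5 and 17.8 TPM in normoxia, and was higher in hypoxia in each animal. This gave ratio changes of 1.03, 0.40 and 0.22 in the knockout-labelled animals and 3.62 and 4.10 in the controls (mean 1.87 ± 0.682, SE; limma adjusted p = 0.868), and the control values depend on the added 1 TPM. Egln3 measured 4.35, 10.6, 13.8, 16.5 and 14.9 TPM in hypoxia TRAP, against 0.723, 6.54, 6.80, 0.543 and 0 TPM in normoxia TRAP. Its input was not of a single direction, at 11.5, 18.5, 21.5, 8.22 and 22.3 TPM in hypoxia and 14.6, 12.1, 13.04, 14.3 and 5.95 TPM in normoxia. The 5 ratio changes were 1.95, 0.05, 0.25, 4.24 and 2.24 (1.75 ± 0.640; adjusted p = 0.868), and its mean without WT-280 was 1.12.

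Among the other HIF targets, Ankrd37 and Arg1 had means in TRAP and input of similar size. Ankrd37, an ankyrin-repeat gene, measured 68.5, 71.8, 113, 128 and 56.1 TPM in hypoxia TRAP and 17.3, 53.7, 33.1, 7.45 and 18.4 TPM in normoxia TRAP. Input gave 63.5, 70.7, 68.9, 84.8 and 24.8 TPM in hypoxia and 9.87, 34.0, 23.4, 21.0 and 5.19 TPM in normoxia, so hypoxia was the higher in every pair of both fractions. Its mean difference was 1.91 in TRAP and 1.83 in input, and the ratio change was 0.08 ± 0.420, positive in KO-179 and WT-280 alone. Arg1, arginase, had 1.78 in TRAP, 1.52 in input and 0.26 ± 0.379 in ratio, and Bnip3, a receptor for the removal of mitochondria, had 1.28, 0.79 and 0.49 ± 0.228. Bnip3l, its relative, had −0.15 in TRAP, 0.61 in input and −0.75 ± 0.383 in ratio.

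Among 21 of 22 tested genes of glycolysis and glucose uptake, 0 passed. In all 5 animals 2 were higher (9.52%, beside 4.59% of all genes) and 1 lower (4.76%, beside 2.09%). The median ratio change was 0.14, close to the median of all genes, with 0.09 without WT-280 and 0.07 without WT-281. Slc16a3, the lactate exporter MCT4, measured 16.4, 62.3, 24.5, 7.33 and 26.2 TPM in hypoxia TRAP, against 4.75, 23.4, 8.97, 6.79 and 7.18 TPM in normoxia TRAP, higher in each animal. Its input held 26.2, 144, 35.8, 17.2 and 28.3 TPM in hypoxia and 16.3, 78.5, 26.5, 32.8 and 16.6 TPM in normoxia. The ratio change came to 0.94, 0.51, 0.94, 0.99 and 1.00 (0.87 ± 0.305; limma adjusted p = 0.868), so 4 of 5 animals lay within 0.94 to 1.00. Pfkfb3, which makes the activator of phosphofructokinase, was at 1.02 ± 0.548 and Gapdh at −0.74 ± 0.300, or at 0.54 and −0.48 without KO-84. Ldha, lactate dehydrogenase A, stood at −0.10 ± 0.228. Of 8 tested oxygen sensors and HIF subunits, Egln3 was again the gene higher in all 5 animals (12.5%, beside 4.59% of all genes). Hif1a itself was negative in the 3 knockout-labelled animals (−0.21, −0.64 and −0.23) and positive in WT-280 and WT-281 (3.18 and 1.12). Its mean was 0.64 ± 0.562, or 0.01 without WT-280. The knockout-labelled minus control difference of Hif1a was −2.51 ± 0.816 and did not pass (limma adjusted p = 0.715). Among all genes, 15.4% had every knockout-labelled animal below every control.

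**Figure D4:**
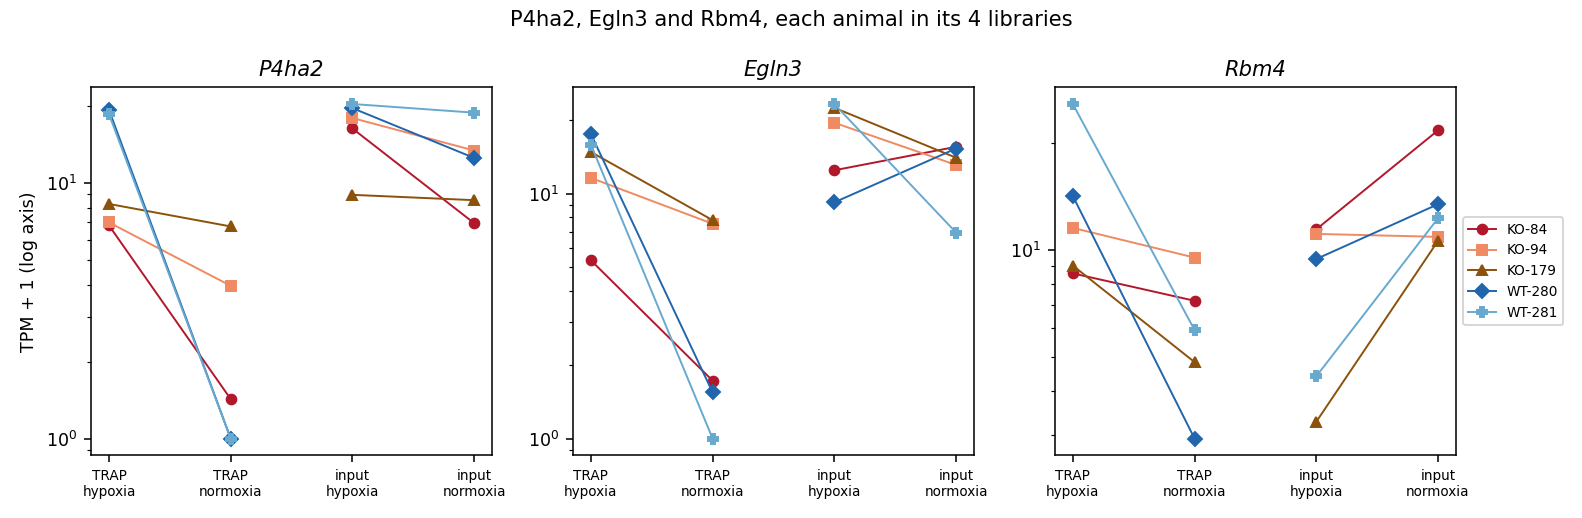
TPM + 1 on a log axis of P4ha2, Egln3 and Rbm4 in the 4 libraries of each animal, hypoxia left of normoxia within TRAP and within input, with a line joining the 2 cultures of an animal. In TRAP the hypoxia point is above the normoxia point for each gene and animal, and for P4ha2 both controls are listed at 0 TPM in normoxia.

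mRNAs of ribosomal proteins serve as the standard readout of mTOR-dependent initiation because their first bases form a pyrimidine tract. A transcript start was taken as a pyrimidine start when an annotated first base was a C followed by at least 4 further C or T. A tract that begins off the annotated base was not counted, so a gene with another start may still have a tract. Of 9709 tested genes with a RefSeq start, 2.89% had such a start on the transcribed strand (3.01% of the 27025 genes in RefSeq on GRCm38.p6), and 15 of them were among the 60 ribosomal protein genes matched, of 81 tested. The first 20 bases of 4 of them are shown to let the tract be read, with the tract in capitals, and were taken from RefSeq on GRCm38.p6, at chr3:90213629-90213648 (minus strand) for Rps27, chr11:114668580-114668599 (plus) for Rpl38, chr2:39005112-39005131 (minus) for Rpl35 and chr2:180257379-180257398 (plus) for Rps21.
Rps27: CCTTTCCggcggtgacgacc
Rpl38: CTTTCCCCgttctcttcggt
Rpl35: CTCTTTCTCTCgaaccaggc
Rps21: CTCCTgcccaatagtgctgc

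The ratio change of these mRNAs had a sign that differed by animal, not a shared direction. Rps27 stood at 0.50, −0.49, 0.25, −0.42 and 0.45 in KO-84, KO-94, KO-179, WT-280 and WT-281 (mean 0.06 ± 0.179, SE), and Rpl38 at 0.71, −0.71, 0.45, −1.02 and 0.48 (−0.02 ± 0.263). Rps21 had the same order of signs (0.14 ± 0.276), and Rpl35 averaged −0.14 ± 0.175. Over all 81 ribosomal protein genes the median was 0.13, −0.13, 0.11, −0.15 and 0.30 by animal, and the median of the means was 0.03, or −0.07 after centring and −0.01 after quantile normalization. Of the 81, 0 passed, and Rps2, a small-subunit protein, was the 1 gene higher in all 5 animals (0.32 ± 0.137), where the share among all genes was 4.59%. The 15 with a pyrimidine start had a median of 0.01 and the other 45 a median of 0.00. This compares annotated starts, not mRNAs with and without a tract. Across all pyrimidine starts the median was 0.13, with 2.85% higher and 1.42% lower in all 5 animals, beside 0.14, 4.82% and 2.17% for the 9428 other starts. Rpl10a, which is the protein carrying the EGFP tag in the transgene, was at −0.58, 0.18, 0.12, 0.32 and 0.44 (0.10 ± 0.178). The ribosomal protein, ferritin and Gapdh genes have near-identical copies in the genome, and the counting of reads that match several copies is not stated in the labels.

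Translation factors showed no shared direction either. Of 45 initiation and elongation factors, 0 passed and none had the same sign in all 5 animals (median −0.00, or 0.00 without WT-280). After centring (median −0.11) and after quantile normalization (−0.09) 2 were lower in all 5 (4.44%, beside 3.75% and 4.09% of all genes). Eef1a1, the elongation factor that delivers tRNA, ran from −0.91 in KO-94 to 0.87 in WT-280. Among 23 regulators of translation in low oxygen, 4 were higher (17.4%, beside 4.59% of all genes) and 1 lower (4.35%, beside 2.09%) in all 5 animals, 0 passed, and the median was 0.30, or 0.20 without WT-280. Those higher were Ppp1r15a, the phosphatase subunit that reverses eIF2 phosphorylation, Rps6kb2, a kinase of ribosomal protein S6, Mknk2, a kinase of the cap-binding factor eIF4E, and Rbm4, an RNA-binding protein reported in human cells to take part in cap-dependent initiation in hypoxia. The gene lower in all 5 was Mknk1, a kinase related to Mknk2, at −1.02 ± 0.472, or −0.52 without WT-280.

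Rbm4 had the smallest unadjusted limma p of these (0.00469, adjusted 0.868). It measured 7.58, 10.5, 8.03, 13.2 and 24.8 TPM in hypoxia TRAP, against 6.18, 8.51, 3.82, 1.94 and 4.94 TPM in normoxia TRAP. Input gave 10.4, 10.1, 2.27, 8.42 and 3.40 TPM in hypoxia and 20.7, 9.88, 9.59, 12.4 and 11.3 TPM in normoxia. In every animal TRAP was higher in hypoxia, and in 4 of 5 input was lower, with KO-94 the exception. By animal the ratio change was 1.18, 0.25, 2.60, 2.78 and 3.60 (2.08 ± 0.560, SE; 95% interval 0.82 to 3.35 before adjustment). Ppp1r15a had 0.70, 0.59, 1.57, 0.73 and 0.83 (0.89 ± 0.294; adjusted p = 0.868), with 0.36 ± 0.197 in TRAP and −0.53 ± 0.182 in input. Rps6kb2 averaged 1.98 ± 0.878, with 6.67 in WT-280 and 0.38 to 1.43 in the other animals. Eif4ebp1, the eIF4E inhibitor under mTOR control, was at −0.04 ± 0.170.

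Transcripts made inside mitochondria, which cytosolic EGFP-tagged ribosomes do not translate, took 0.0298% to 0.861% of TPM in TRAP libraries and 1.26% (WT-280 in hypoxia) to 4.75% (KO-84 in normoxia) in input libraries. Their ratio change differed in sign between animals in an order much like that of the ribosomal protein mRNAs: the list median of the 13 mRNAs was 1.25 in KO-84, −1.07 in KO-94, 1.03 in KO-179, −0.25 in WT-280 and 1.64 in WT-281. Hence 0 of 13 had the same sign in all 5 animals. Means above 0 numbered 12 of 13, beside 9077 of 14842 over all genes (list median 0.83, or 0.47 without KO-179). The share of all TPM gave a log2 ratio change of 0.39 ± 1.01 (SD, n = 5; exact two-sided sign-flip p = 0.5). Noncoding RNAs took a ratio change of their share of 0.27 ± 0.258, positive in 5 of 5 animals (exact p = 0.0625, the smallest possible; 0.375 adjusted over 12 measures). Their hypoxia share was 0.0951% to 0.269% in TRAP and 0.0639% to 0.150% in input, against 0.101% to 0.296% in TRAP and 0.0685% to 0.199% in input in normoxia. Gene by gene, 2 of 24 were higher in all 5 animals (8.33%, beside 4.59% of all genes), among them Snhg20 (1.71 ± 0.575). The nuclear RNAs Malat1 (0.52 ± 0.461) and Neat1 (−1.15 ± 0.814) had both signs among animals.

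Immediate early genes, which cells induce within minutes of a stimulus, had the highest share of members with a higher ratio in all 5 animals among the lists (5 of 21, or 23.8%, beside 4.59% of all genes), and 0 passed. After centring 4 were higher in all 5 (19%, beside 3.44% of all genes), and 5 after quantile normalization (23.8%, beside 3.02%). The list median was 0.29, or 0.18 without WT-280, and 19 of 21 means were above 0, beside 9077 of 14842 over all genes. The 5 genes were Fos, Fosl2, Junb, Ier2 and Ier5, which encode transcription factors of the AP-1 group and 2 early response proteins. Fos measured 364, 699, 527, 1024 and 575 TPM in hypoxia TRAP and 343, 815, 844, 1271 and 1070.4 TPM in normoxia TRAP, and 379, 857, 221, 378 and 433 TPM in hypoxia input and 505, 1029.5, 436, 842 and 826 TPM in normoxia input. Input was lower in hypoxia in each animal and TRAP in 4 of 5, with a mean of −0.75 ± 0.158 in input and −0.40 ± 0.163 in TRAP. Its ratio change was 0.50, 0.04, 0.30, 0.84 and 0.04 (0.34 ± 0.173, or 0.22 without WT-280; limma adjusted p = 0.868). Fosl2 stood at 0.90 ± 0.443, Ier5 at 0.44 ± 0.247, Ier2 at 0.29 ± 0.205 and Junb at 0.28 ± 0.221.

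Of 2 mRNAs that HuR is known to bind, Tnf averaged 0.00 in ratio change and Vegfa 0.87, each with both signs among the animals. Tnf, the inflammatory cytokine, measured 21.5, 17.6, 88.5, 21.6 and 39.1 TPM in hypoxia TRAP and 24.5, 35.5, 67.9, 72.4 and 96.2 TPM in normoxia TRAP. In input it was 13.3, 26.3, 36.3, 30.7 and 51.6 TPM in hypoxia and 39.7, 45.0, 32.1, 73.7 and 70.4 TPM in normoxia. Hypoxia was lower in 4 of 5 animals in each fraction, with KO-179 the exception, by −0.75 in both on average. Its ratio change was 1.33, −0.22, 0.20, −0.46 and −0.84, a mean of 0.00 ± 0.354 with a 95% interval of −0.80 to 0.80. Vegfa, the angiogenic factor, measured 24.1, 31.6, 27.0, 28.3 and 70.4 TPM in hypoxia TRAP and 26.8, 38.1, 24.9, 39.9 and 53.3 TPM in normoxia TRAP. Its input was 34.4, 52.0, 22.0, 3.19 and 14.9 TPM in hypoxia and 56.1, 52.7, 10.8, 33.4 and 60.6 TPM in normoxia, so the controls had the lowest hypoxia values. The ratio change of Vegfa was 0.54, −0.25 and −0.85 in the knockout-labelled animals and 2.56 and 2.35 in the controls (mean 0.87 ± 0.529, or 0.45 without WT-280 and 0.50 without WT-281). The knockout-labelled minus control difference of Vegfa was −2.64 ± 0.653 and did not pass (limma adjusted p = 0.715). Every knockout-labelled animal lay below every control for 15.4% of all genes.

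Of 23 inflammatory cytokines and chemokines, 0 passed (median 0.00, or −0.10 after centring and 0.07 without WT-280). In all 5 animals 1 was lower (4.35%, beside 2.09% of all genes). That gene was Ccl6, a macrophage chemokine, whose values between −0.16 and −0.07 made the narrowest range of any gene named here (mean −0.12 ± 0.111). Among 18 AU-rich element binding proteins 2 were higher in all 5 animals (11.1%, beside 4.59% of all genes). They were Khsrp (0.58 ± 0.362) and Zfp36 (0.16 ± 0.170), both of which promote decay of AU-rich mRNAs. After centring or quantile normalization none of the list was higher in all 5, beside 3.44% and 3.02% of all genes. The list median was 0.20, or 0.09 without KO-84. Of 25 ATF4 targets, Ppp1r15a was higher (4%, beside 4.59% of all genes) and Eprs, a tRNA synthetase, lower (4%, beside 2.09%) in all 5. The list median was 0.28, or 0.07 without KO-84 and 0.12 without WT-280, and Atf4 itself averaged 0.35 ± 0.220.

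Lysosomal genes had 7 of 30 members higher in all 5 animals (23.3%, beside 4.59% of all genes) and 0 lower, with 0 passing. This count was lower on the other scales. Centring left 4 higher (13.3%, beside 3.44% of all genes) and 1 lower (3.33%, beside 3.75%). Quantile normalization left 6 higher (20%, beside 3.02%) and 0 lower (0%, beside 4.09%). The list median was 0.21, or 0.12 without WT-280. The 7 were the membrane proteins Lamp1 and Lamp2, the proteases' activator Ctsc, the lipid-degradation cofactor precursor Psap, the glucuronidase Gusb, Grn, which encodes progranulin, and Atp6v1a, the catalytic subunit of the proton pump. Grn measured 554, 895, 462, 297 and 406 TPM in hypoxia TRAP, against 280.5, 789, 338, 179.6 and 225 TPM in normoxia TRAP, and 500.3, 1359, 706, 341 and 476 TPM in hypoxia input, against 328, 1249, 651, 538 and 456 TPM in normoxia input. TRAP was higher in hypoxia in every animal and input in 4 of 5. The ratio change of Grn was 0.37, 0.06, 0.33, 1.38 and 0.79 (0.59 ± 0.212, or 0.39 without WT-280; limma adjusted p = 0.868). Ctsc, cathepsin C, had 0.52, 0.19, 0.42, 0.54 and 0.89 (0.51 ± 0.204), Atp6v1a averaged 0.91 ± 0.301, Gusb 0.37 ± 0.221, Lamp2 0.29 ± 0.160, Psap 0.25 ± 0.211 and Lamp1 0.23 ± 0.145.

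In the remaining lists at most 2 genes were lower and at most 2 higher in all 5 animals, and 0 passed. Among all genes 2.09% were lower and 4.59% higher in all 5, with 5765 of 14842 means below 0 and 9077 above. Lower in all 5 were 5.88% of oxidative phosphorylation genes, 5.56% of proteasome subunits, 3.33% of interferon-stimulated genes and 3.45% of cell cycle genes. Higher in all 5 were 7.69% of endoplasmic reticulum genes and 9.09% each of macrophage identity genes and fibroblast markers. Cholesterol genes had 4.35% in each direction. Of 34 nuclear oxidative phosphorylation genes, 23 means were below 0 (median −0.09, or 0.00 without WT-280), and the 2 lower in all 5 were Atp5b, a catalytic subunit of ATP synthase (−0.59 ± 0.197), and Ndufab1, a subunit of complex I (−0.51 ± 0.214). Of 36 proteasome subunits, 26 means were below 0 (median −0.13, or −0.03 without KO-84), with Psme2 (−0.38 ± 0.166) and Psmb1 (−0.25 ± 0.159) lower in all 5. Among 23 genes of cholesterol synthesis and uptake, 20 means were above 0 (median 0.45, or 0.22 without KO-84), and the sterol enzymes Cyp51 (0.98 ± 0.491) and Sc5d (−1.38 ± 0.528) were higher and lower in all 5. Of 26 endoplasmic reticulum genes, Ssr1 (0.77 ± 0.340) and Dnajc3 (0.56 ± 0.316) were higher in all 5, beside a median of −0.05, or 0.01 without WT-280. Of 22 macrophage identity genes, Mertk, a receptor for dying cells (1.46 ± 0.498), and Folr2, a folate receptor (0.46 ± 0.220), were higher in all 5 (median −0.04, or −0.09 without WT-280). The interferon-stimulated genes had a median of 0.18, which was 0.10 without WT-280 and −0.05 after quantile normalization, with Isg20, an antiviral nuclease, lower in all 5 (−1.40 ± 0.527, or −0.93 without WT-281). Stmn1, a microtubule regulator of the cell cycle list, was lower in all 5 (−0.69 ± 0.258), and no class II antigen presentation gene had a shared sign. Of 11 tested fibroblast markers, 8 means were below 0 (median −0.12, or 0.06 without KO-84 and −0.08 without WT-280), and the collagen Col1a1 was the 1 gene higher in all 5 (0.96 ± 0.386), at 1.02 to 18.5 TPM in hypoxia TRAP and 0 to 13.2 TPM in normoxia TRAP. Its largest ratio changes, 1.55 in KO-94 and 1.40 in KO-84, had 0 and 1.48 TPM in normoxia TRAP and depend on the added 1 TPM.

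**Figure D5:**
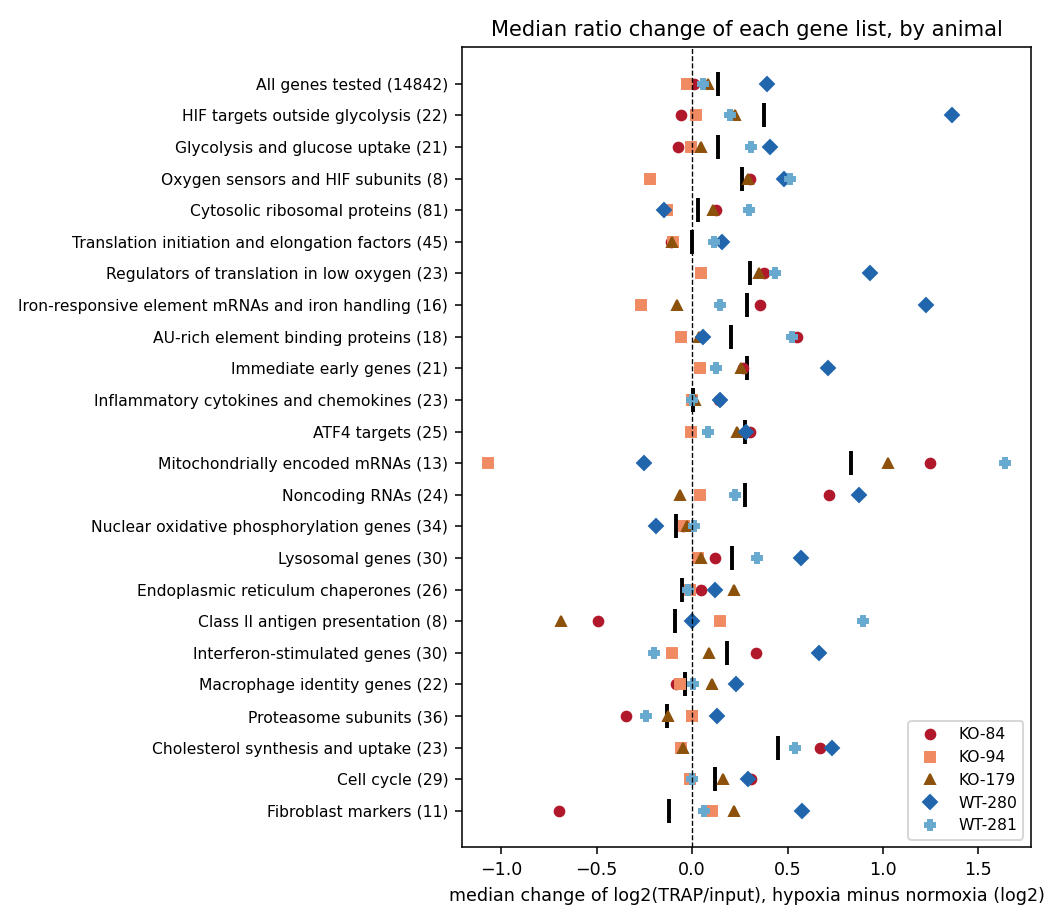
Median ratio change of each gene list with 8 or more tested members (number tested in brackets), with a symbol per animal and a black tick for the median of the mean values, hypoxia minus normoxia. The symbols of most lists fall on both sides of 0, WT-280 is farthest to the right for the HIF targets (1.36), and the mitochondrially encoded mRNAs span −1.07 to 1.64.

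Whether the ratio change depended on the labelled genotype was tested as knockout-labelled minus control animals. With limma, 0 of 14842 genes passed (0%), the smallest adjusted p was 0.191, and 1019 were below 0.05 before adjustment (284 higher and 735 lower in the knockout-labelled animals, 742 being the number given by chance). That split followed the scale: it was 420 higher and 530 lower after centring, and 423 higher and 509 lower after quantile normalization. Without WT-280, which leaves WT-281 as the only control, Selenop, a selenium transport protein, had a difference of 7.92. That value rests on a single control animal, so its spread among controls is unknown. Every knockout-labelled animal lay above every control for 1130 genes (7.61%) and below for 2290 (15.4%), beside a median gene at −0.21. That median was −0.00892 after centring, 0.0183 after quantile normalization and −0.0611 without WT-280, so these shares are to be read against the scale too. In the knockout-labelled animals alone 0 genes passed (382 below 0.05 before adjustment), and in the controls alone 0 (1505). For the controls alone the count was 1 without KO-84 (the gene model Gm45717). Without WT-280, Selenop stood at −7.80 in WT-281, the only control left.

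Of the genes averaging at least 10 TPM, Sirpa, the receptor for the "do not eat" signal CD47, had the smallest p of those lower in the knockout-labelled animals. In TRAP it measured 17.9, 841 and 131 TPM in the hypoxic cultures of KO-84, KO-94 and KO-179 and 339.9 and 100.1 TPM in WT-280 and WT-281, against 13.1, 879, 392, 231 and 22.7 TPM in normoxia. In input it measured 164, 1246, 51.9, 17.1 and 29.0 TPM in hypoxia and 252, 1258, 49.1, 260.1 and 201 TPM in normoxia, with both controls far lower in hypoxia. The ratio change was 1.04, −0.05 and −1.65 in the knockout-labelled animals and 4.41 and 4.85 in the controls, a difference of −4.84 ± 0.739 (SE; limma adjusted p = 0.715). Plxnb2, a semaphorin receptor (−2.44 ± 0.451), Alkbh3, a DNA repair dioxygenase (−3.55 ± 0.736), Fbxo18 (−3.30 ± 0.667) and Mcat, a mitochondrial acyltransferase (−7.10 ± 1.48), followed. Mcat was listed at 0 in 2 control libraries, the normoxia TRAP and the hypoxia input library of WT-280. Fth1 had a difference of 0.18 ± 0.203, with −0.37 ± 0.129 in knockout-labelled animals and −0.55 ± 0.157 in controls.

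Eloc, elongin C, a subunit of the ubiquitin ligase that degrades HIF, led the genes with a higher ratio change in the knockout-labelled animals. It measured 491, 196, 331, 478 and 328 TPM in hypoxia TRAP and 336, 198, 317, 495 and 706 TPM in normoxia TRAP. Input gave 274, 111, 326, 613 and 283 TPM in hypoxia and 459.8, 174, 495, 252 and 194 TPM in normoxia, lower in hypoxia in the 3 knockout-labelled animals and higher in the 2 controls. This gave ratio changes of 1.29, 0.62 and 0.67 in the knockout-labelled animals and −1.33 and −1.64 in the controls, a difference of 2.35 ± 0.379 (limma adjusted p = 0.715). Bola3, which helps mature iron-sulfur proteins (2.00 ± 0.424), Tomm5, a subunit of the mitochondrial import pore (2.04 ± 0.456), Stambp, a deubiquitinase (3.15 ± 0.706), and Smim14 (3.57 ± 0.839) had the next smallest p, each with the same adjusted p. HIF targets had a list median of 0.03 over the mean values of the knockout-labelled animals and 0.78 over those of the controls. By animal that median was 1.36 in WT-280, while 0.20 in WT-281 lay within the knockout-labelled values (−0.06, 0.02 and 0.22). P4ha2 had a difference of −3.31 ± 0.874 (limma adjusted p = 0.715).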

How the data were processed

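The deposited tables, 1 for TRAP and 1 for input, hold 1 value per gene and library, read as TPM because each library sums to 1000000; how the authors made the TPM from alignments is not stated in the labels. The submitters' processing notes name HISAT, DESeq2 and GRCm38, without role or version. Left unused were 10 columns per table that hold ratios per animal. The tables were joined by gene ID (52403 of 52636 found in the gene table; 26 of 27 symbols turned into dates were named from their ID), and no 2 libraries held identical values.

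Values were analysed as log2(TPM + 1), which understates changes of low genes, for genes that reached 1 TPM in 2 or more libraries. Animals are separate mice by the design text, and the animal number pairs its 4 libraries, so the main test was made on 1 difference of differences per animal: limma 3.58.1 (R 4.3.3), empirical Bayes with a mean-level trend, two-sided, Benjamini-Hochberg adjusted p under 0.05. The genotype difference and the means within a genotype came from a fit with genotype as a term. Single values per library had an exact sign-flip test. TPM hold no read numbers, so precision rests on the 5 animals. No batch is given in the labels. Python 3.11.15, numpy 2.4.6, pandas 2.3.3 and matplotlib 3.10.9 were used, and the pipeline was tested on simulated data.

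The gene lists (28), the members and the named genes were chosen with earlier results of these data known. Named were 10 fixed genes; up to 12 passing genes in each direction or, failing these, those with the smallest p among genes averaging at least 10 TPM with all 5 differences of 1 sign; up to 2 such members in each direction of each list, averaging at least 5 TPM; and up to 5 in each direction for the genotype difference. Genes named outside this rule (Ankrd37, Arg1, Bnip3, Bnip3l, Ldha, Slc40a1, mt-Co1, Eef1a1, Eif4ebp1, Atf4, the remaining lysosomal, immediate early and translation regulator genes of 1 sign, the ribosomal proteins shown, Selenop and Gm45717) were chosen after their values were seen. Transcript starts came from RefSeq. Alternatives were pseudocounts of 0.1 and 5, no filter, a mean of at least 5 TPM, quantile normalization, no trend, joint fits of the 20 libraries with and without the animal as a block, genotypes weighted equally, leaving out each animal and, added after the data were seen, centring on each animal's median gene.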

Additional observations from a re-analysis of the deposited data

Results flagged for a closer look

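In 112 groups of 5 values (the ratio change of each named gene, list median and library-wide measure by animal), the highest or lowest animal was examined for a gap to the others larger than chance gives in about 1 of 20 groups, and 13 had such a gap. The animal apart was KO-179 in 5 of them, WT-280 in 4, KO-94 in 2, WT-281 in 2 and KO-84 in 0. In WT-280 the median of all genes (0.39), the median of the HIF targets (1.36) and the change in genes at 1 TPM or more (2190, the TRAP minus input difference in hypoxia minus that in normoxia) were above the other animals, and the median of the nuclear oxidative phosphorylation genes (−0.189) was below them.

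In KO-179, Tfrc (−1.19) and Atp5b (−1.23) were below the other animals and Ppp1r15a (1.57) above them. The endothelial markers stood above there too, with a list median of 1.16 over 5 tested genes and a log2 ratio change of their summed TPM of 2.53. In KO-94, Grwd1 (0.132) and Slc16a3 (0.507) were nearer to 0 than in the other animals. In WT-281, Dbndd2 (−5.46) was below and Cyp51 (2.26) above the rest.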

How the results depend on the processing

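The count of genes passing was 0 for the ratio change, its genotype difference and each genotype alone under each pseudocount, filter, normalization, centring and trend tried, and for the ratio change with genotypes weighted equally; TRAP and input alone were fitted under no alternative. With 1 knockout-labelled animal left out it ranged from 0 to 1 for the controls alone and was 0 otherwise. For the ratio change it was 0 with any 1 animal left out. Leaving out a control leaves 1 control animal, which is assumed to vary like the other genotype, so no genotype count is given there. With no replicate block in a joint fit of 20 libraries, 0 genes passed for the ratio change (227 at an unadjusted p under 0.05) and 0 for the genotype difference (354); with an additive animal block the numbers were 0 (609) and 0 (877). Of the named genes, these changed sign: Tnf with a pseudocount of 5 (−0.00305), quantile normalization (−0.0307), genotypes weighted equally (−0.106) and centring (−0.1), Tfrc with a pseudocount of 0.1 (−0.0355), Rpl10a with centring (−0.00524), and, with 1 animal left out, Tnf (−0.33 to 0.212), Elavl1 (−0.266 to 1.74) and Malat1 (−0.0151 to 0.827). List medians that moved by more than the spread of the animals' medians were those of the hepatocyte markers (0.254 and 0.0059 with pseudocounts of 0.1 and 5, −0.288 at a mean of at least 5 TPM, −0.0426 with quantile normalization, −0.0209 with centring) and, with centring, of cytokines (−0.1), oxidative phosphorylation (−0.189) and endoplasmic reticulum genes (−0.156). With 1 animal left out the ATF4 targets ranged from 0.0726 to 0.335, hepatocyte markers from −0.0102 to 0.191, endothelial markers from −0.302 to 0.419, oxidative phosphorylation from −0.15 to 0.00251 and endoplasmic reticulum genes from −0.0889 to 0.0527. The cause of these shifts was not tested. The depth is unknown, so no limit from counting can be given.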
